A study of Mus musculus with 6 samples.

Results

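The genes described here are 9 transcripts of efferocytosis, the uptake of dying cells by macrophages: Mertk, Axl, Gas6, Pros1, Mfge8, Cd300a, Cd300lf, Cd47 and Lrp1. They were taken by symbol from the 55291 genes of the count table, in which all 9 were found, and all 9 were among the 9815 genes with enough counts to be tested. Bone marrow-derived macrophages (BMDMs) were grown from the bone marrow of C57BL/6 mice, 3 WT and 3 carrying a Pyk2 knock-out in every cell (PYK2 KO, deletion of the kinase encoded by Ptk2b). Both groups were cultured for 7 days in medium with L929-conditioned medium as the source of M-CSF, and the labels name no further treatment and no added apoptotic cells. The ages of the mice are not given in the labels.

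A dying cell moves the lipid phosphatidylserine to the outside of its membrane, and macrophages recognize it through receptors that bind the lipid directly or through soluble bridging molecules. MERTK and AXL are receptor tyrosine kinases of the TAM family that bind the lipid through bridging ligands, GAS6 for both and protein S, the product of Pros1, for MERTK. MFG-E8 binds the lipid with one end and the integrins αvβ3 and αvβ5 with the other. CD300A and CD300LF bind the lipid directly, CD47 is the "don't eat me" signal read by SIRPα on phagocytes, and LRP1 is a large endocytic receptor that takes up calreticulin-marked cells and many other ligands.

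Each library came from 1 mouse and was sequenced from the 3′ end of its transcripts, to between 2857097 and 3917207 counts. Levels are given as CPM, counts after scaling of all libraries to one size by the TMM method, and are compared between mice for the same gene only, never between genes. Single values are always given in the order of WT mice 1, 5 and 6 and of PYK2 KO mice 2, 3 and 4, by the numbers of their libraries. The transcript of the deleted gene, Ptk2b, was at 188, 196 and 199 CPM in WT mice and at 22.8, 22.2 and 20.6 CPM in PYK2 KO mice, which matched the labels. All 8 macrophage markers were detected, with a summed level of 29161 to 29937 CPM in WT libraries and 30354 to 31356 CPM in PYK2 KO libraries, and none of the 8 passed the test. Fibroblast and stromal markers (4 of 8 without a count), dendritic cell markers (6 of 8), T and NK cell markers (4 of 6) and mast cell, basophil and eosinophil markers (3 of 5) each summed to at most 1.53 CPM in any library. Of the 6 B cell markers only Cd79b had counts, at 19.3 to 20.7 CPM in WT libraries and 13.8 to 23.2 CPM in PYK2 KO libraries, and of the 5 endothelial markers Vwf and Kdr made up nearly the whole sum, at 85.5 to 102 and 96.9 to 102 CPM, while Tek and Emcn had no count. Neutrophil markers, all 9 detected, summed to 129 to 181 and 133 to 232 CPM, and monocyte markers, all 5 detected, to 30.1 to 32.9 and 32.7 to 44.1 CPM. Of the erythroid and megakaryocyte markers the globin genes had no count, and Pf4, which macrophages also express, made up nearly all of the 648 to 862 and 651 to 666 CPM.

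Of the 9 efferocytosis genes, 1 differed between genotypes. Mfge8, which encodes the bridging molecule MFG-E8, fell to 69.1% of the WT level in PYK2 KO BMDMs, a call that was lost in 4 of the 6 fits with a single library left out. The other 8 did not pass the test, with log2 fold changes from -0.05 for Cd47 to 0.43 for Pros1 and adjusted p-values from 0.88 to 0.999 in edgeR's quasi-likelihood F test, here and below adjusted by the method of Benjamini and Hochberg over all genes tested. This count of 1 of 9 stands beside 0.255% of all 9815 genes that passed at an adjusted p-value under 0.05, and 0.143% that passed as lower in PYK2 KO. Mfge8 was also the only member with an unadjusted p-value under 0.05, where 6.03% of all genes had one, and the only member whose genotypes did not overlap, as in 10.2% of all genes. With so few members, 1 gene makes up each of these counts. On the log2 scale the median difference of the 9 genes was -0.0076, against 0.0019 for all genes.

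**Figure D1:**
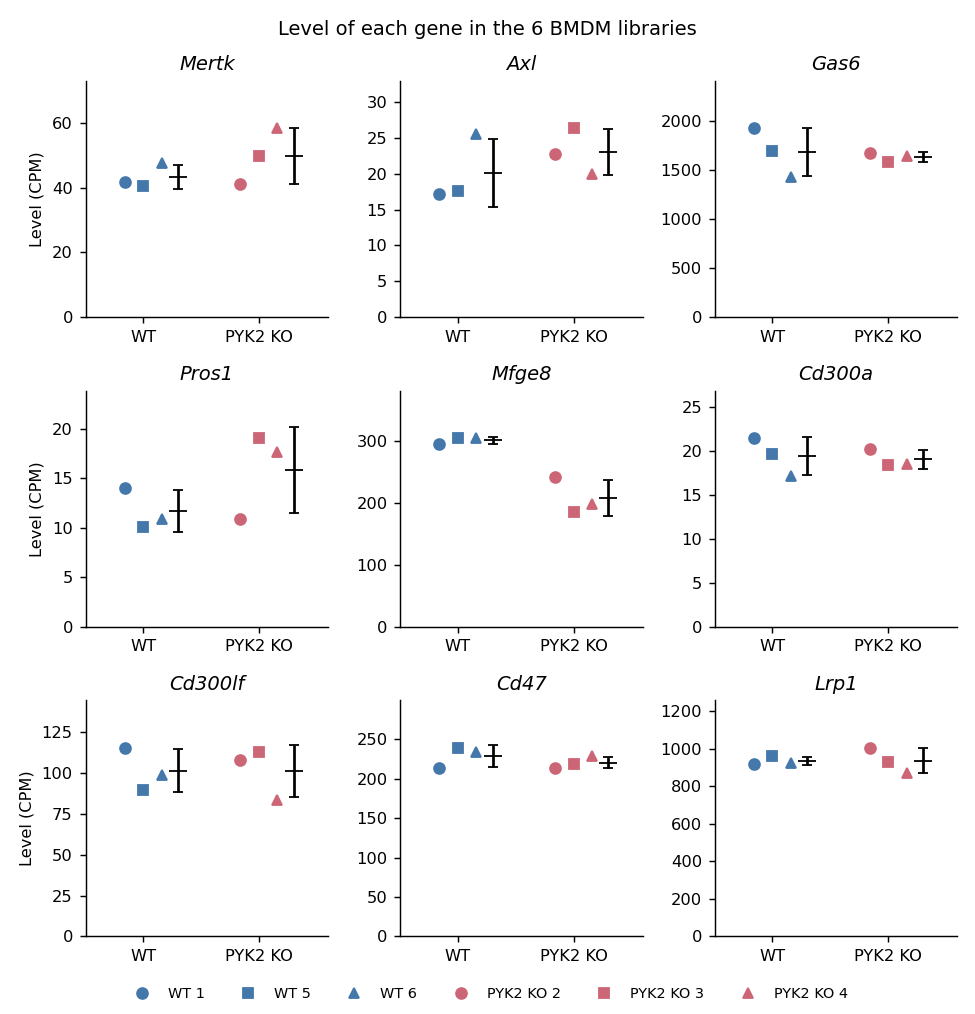
Level of each gene in CPM (scaled counts, linear axes from 0) in the 3 WT libraries (blue) and the 3 PYK2 KO libraries (red), with mean and SD over 3 mice in black. The PYK2 KO points lie below all WT points for Mfge8, at 185 to 241 CPM against 294 to 304 CPM, and overlap with WT for the other 8 genes.

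Mfge8 lies on the minus strand of chromosome 7 between 79133768 and 79149060 (GRCm38, GENCODE M21), and no other annotated gene overlaps it. Because it was the gene that differed, the 250 bases before its RefSeq transcription start are shown (GRCm38.p6, chr7:79149061-79149310, minus strand, 5′ to 3′), with each GC box core, GGGCGG or its reverse complement CCGCCC, in capitals.

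Mfge8 promoter: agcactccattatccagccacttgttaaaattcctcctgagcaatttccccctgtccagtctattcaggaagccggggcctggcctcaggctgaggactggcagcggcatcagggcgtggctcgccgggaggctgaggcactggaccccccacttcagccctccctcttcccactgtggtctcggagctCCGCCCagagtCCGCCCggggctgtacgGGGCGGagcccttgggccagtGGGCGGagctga

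The 4 copies start 61, 50, 33 and 12 bases before the transcription start. At least 1 copy stood in 32.7% of the 32851 promoter windows searched on both strands, and 4 or more in 4.09%. The Mfge8 window was rich in G and C, at 65.2% of its bases against a median of 52.4%, and 83.8% of all windows were at or below it. The same window held 4 copies for Gas6, 5 for Pros1 and 3 for Mertk, none of which passed the test, and 0 for Cd300a and Cd300lf. The letters of the CCAAT box (CCAAT), TATA box (TATAAA), E-box (CACGTG), nuclear receptor site (AGGTCA), AP-1 site (TGACTCA) and PU.1 site (GAGGAAGT), searched on both strands, were not found in the Mfge8 window. They stood in 33.8%, 12.4%, 6.02%, 14.0%, 4.46% and 2.44% of all windows, in that order. Other forms of these sites were not searched for. The letters are a description of the window and no binding was measured.

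The level of Mfge8 was 294, 304 and 304 CPM in the WT mice, from 868 to 1151 counts each. In the PYK2 KO mice it was 241, 185 and 197 CPM, from 534 to 751 counts each. All 3 PYK2 KO libraries were below all 3 WT libraries, and library 2 stood closest to WT. Set against the WT mean of 301 ± 5.80 CPM (SD, n = 3 mice), the PYK2 KO libraries reached 80.1%, 61.5% and 65.6%, with a mean of 208 ± 29.4 CPM (SD, n = 3 mice). The spread was thus wider among PYK2 KO mice, with a coefficient of variation of 14.2% against 1.93% in WT. Counting alone gives an error of 2.95% to 4.33% on each value, so the WT values lay closer together than counting error.

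The log2 fold change of Mfge8 was -0.53 (standard error 0.10, 95% interval -0.74 to -0.33, edgeR adjusted p = 0.0275), lower in 3 of 3 PYK2 KO libraries. This interval corresponds to a PYK2 KO level of between 60.0% and 79.7% of WT. Among the 9815 genes Mfge8 ranked at position 18 by p-value, and 3.68% of all genes had a fold change at least as large in either direction. A two-sided exact permutation test over the 6 mice gave p = 0.1, the smallest that 3 against 3 mice allow. In this bulk measurement, fewer cells that express a gene and less of its RNA per cell cannot be told apart. The summed macrophage markers, most of them counts of Lyz2, were higher in the PYK2 KO libraries while Mfge8 was lower. Single markers went both ways, and none passed the test. Lyz2, Itgam and Fcgr1 had log2 fold changes of 0.08, 0.12 and 0.20. Those of Csf1r, Adgre1, Cd68, Aif1 and Cd14 were -0.05, -0.09, -0.02, -0.07 and -0.08. The part of these markers in the result was not tested.

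The call for Mfge8 depended on single mice, although its direction did not. With single libraries left out, its log2 fold change ranged from -0.65 to -0.46. The adjusted p-value came to 0.198 and 0.0991 without libraries 5 and 6 of WT and to 0.209 and 0.15 without libraries 3 and 4 of PYK2 KO, so 4 of these 6 fits no longer passed (edgeR). Without WT library 1 or PYK2 KO library 2 it passed, at adjusted p-values of 0.0351 and 0.00423. Under the other normalizations, filters and tests, and with a covariate for a split of the libraries, Mfge8 passed each time, with adjusted p-values from 1.72e-06 to 0.03 (edgeR, DESeq2 and limma). The lowest came from the fit without a filter, in which 159 of all genes passed, against 25 as reported. All of these settings used the same 6 libraries.

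**Figure D2:**
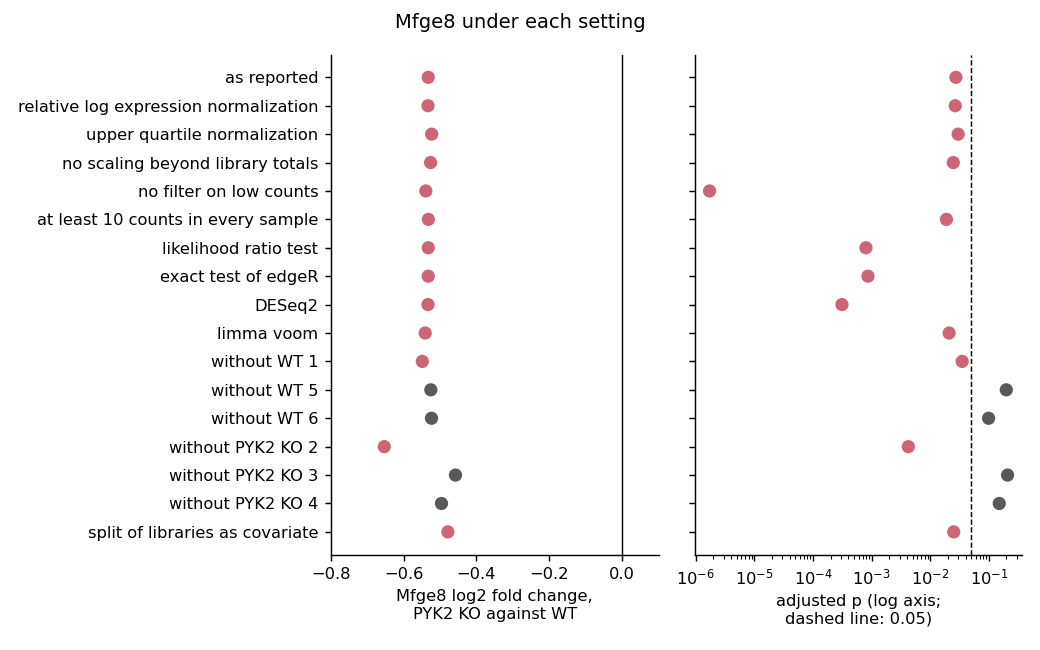
Log2 fold change of Mfge8 (left) and its adjusted p-value on a log axis (right) as reported, under each other setting, and with each library left out. Red points passed 0.05 and grey points did not; the fold change stayed between -0.65 and -0.46 and the 4 grey points are fits that left out WT 5, WT 6, PYK2 KO 3 or PYK2 KO 4.

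The other bridging molecules, both soluble vitamin K-dependent ligands of TAM receptors, did not pass. Gas6, on the minus strand of chromosome 8 from 13465374 to 13494490, was at 1926, 1690 and 1430 CPM in WT mice and at 1676, 1579 and 1643 CPM in PYK2 KO mice. The PYK2 KO values lay inside the WT range, and here the spread was wider among WT mice, 1.35-fold from lowest to highest against 1.06-fold in PYK2 KO. Gas6 had a log2 fold change of -0.04 against WT (standard error 0.09, edgeR adjusted p = 0.991), with a 95% interval from 84.6% to 111% of the WT level.

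Pros1 encodes protein S, which also acts as an anticoagulant in plasma, and lies on the plus strand of chromosome 16 from 62854307 to 62929346. It had the fewest counts of the 9 genes, from 31 to 59 in a library. Its level was 14.0, 10.1 and 10.9 CPM in WT mice and 10.9, 19.1 and 17.6 CPM in PYK2 KO mice. PYK2 KO libraries 3 and 4 lay above all WT libraries, while PYK2 KO library 2 lay within the WT range. Its log2 fold change was 0.43 (standard error 0.23, edgeR adjusted p = 0.88). Its 95% interval ran from 96.4% to 188% of the WT level, and with single libraries left out the value ranged from 0.28 to 0.64. The split that an earlier look at these counts had found, WT library 1 with PYK2 KO libraries 3 and 4 against the rest, also parted Pros1, at 14.0 to 19.1 CPM against 10.1 to 10.9 CPM. With that split as a covariate the log2 fold change was 0.25. Pros1 was the only member without overlap between the sides of the split, as were 14.2% of all genes tested. The summed neutrophil markers followed the same split, at 181 to 232 CPM against 129 to 147 CPM, but not every marker did. S100a9 was parted, at 269 to 346 counts against 97 to 158. Mpo, at 6 to 21 counts against 4 to 12, and Camp, at 24 to 28 against 14 to 36, overlapped. Neither the labels nor the methods name a batch of this kind, and the part of the split and of these markers in the result was not tested.

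The TAM receptors themselves, Mertk and Axl, did not pass either. Mertk is the receptor that macrophages use for steady clearance of dying cells, and it lies on the plus strand of chromosome 2 from 128698956 to 128802894. It was at 41.9, 40.6 and 47.7 CPM in WT mice and at 41.1, 49.9 and 58.4 CPM in PYK2 KO mice. The highest levels were in PYK2 KO libraries 3 and 4, and library 2 was at the WT level. Mertk had a log2 fold change of 0.21 over WT (standard error 0.14, edgeR adjusted p = 0.912), and the 95% interval ran from 94.6% to 141% of WT. This value rested in large part on PYK2 KO library 4, being 0.071 when that library was dropped and 0.33 when PYK2 KO library 2 was.

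Axl, the TAM receptor raised in inflammatory settings, lies on the minus strand of chromosome 7 from 25757273 to 25788705. Its level was 17.1, 17.6 and 25.6 CPM in WT mice and 22.8, 26.3 and 20.0 CPM in PYK2 KO mice. WT library 6 reached the PYK2 KO range and the other WT libraries lay below it. For Axl the log2 fold change was 0.21 (standard error 0.18, 95% interval 88.5% to 151% of WT, edgeR adjusted p = 0.935), and it ran from 0.10, when WT library 1 was dropped, to 0.40, when WT library 6 was. With 63 to 76 counts per library, counting alone gives an error of 11.5% to 12.6% on each value. The ratio of Mertk to Axl counts was 2.20 ± 0.304 in WT and 2.21 ± 0.623 in PYK2 KO (SD, n = 3 mice each; two-sided exact permutation p = 0.9). The third TAM receptor, Tyro3, had at most 2 counts in any library and was not tested.

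CD300A carries inhibitory motifs in its tail, and CD300LF can act as an inhibitory or as a clearance receptor. Their genes lie near each other on chromosome 11, Cd300a on the plus strand from 114890041 to 114904654 and Cd300lf on the minus strand from 115116214 to 115133992. Cd300a was at 21.5, 19.6 and 17.2 CPM in WT mice and at 20.2, 18.4 and 18.5 CPM in PYK2 KO mice. All PYK2 KO values fell inside the WT range, with a log2 fold change of -0.04 (standard error 0.16, 95% interval 77.1% to 123% of WT, edgeR adjusted p = 0.994).

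Cd300lf was at 116, 89.9 and 99.2 CPM in WT mice and at 108, 113 and 83.5 CPM in PYK2 KO mice. The groups overlapped over nearly their whole range, and the log2 fold change was -0.0076 (standard error 0.12, 95% interval 83.5% to 119% of WT, edgeR adjusted p = 0.999). Cd300lf was the only member whose last 1000 transcript bases share a stretch of 50 bases with other genes, 102 in number. Of these, 4 belong to the Cd300 family and had at most 2 counts in any library, and 63 had no count. However, 5 others reached at least 280 counts in a library, the lowest count of Cd300lf itself, namely Sri (936 at most), Emp1 (732), Ctsc (686), Mylip (351) and Icam1 (285). How the pipeline assigned reads from such a stretch is not given in the sources used here, so the value of Cd300lf is uncertain.

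Cd47 encodes the surface protein by which healthy cells hold off phagocytes, and lies on the plus strand of chromosome 16 from 49800533 to 49915010. It was at 214, 240 and 233 CPM in WT mice and at 214, 219 and 229 CPM in PYK2 KO mice. The PYK2 KO values lay inside the WT range, with a log2 fold change of -0.05 (standard error 0.08, 95% interval 85.5% to 109% of WT, edgeR adjusted p = 0.972). With single libraries left out, this fold change ranged from -0.10 to -0.02.

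Lrp1 lies on the minus strand of chromosome 10 from 127538161 to 127621148. Its level was 918, 960 and 925 CPM in WT mice and 1006, 928 and 872 CPM in PYK2 KO mice. The PYK2 KO values spread around the WT values on both sides, and the log2 fold change was 0.0016 (standard error 0.08, edgeR adjusted p = 0.999). Its 95% interval ran from 89.2% to 112% of the WT level and was the narrowest of the 9 genes on the log2 scale, on which that of Pros1 was the widest. For the opposite-strand genes that overlap Mertk, Gas6, Cd300lf and Lrp1, at most 3 counts were listed in any library.

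**Figure D3:**
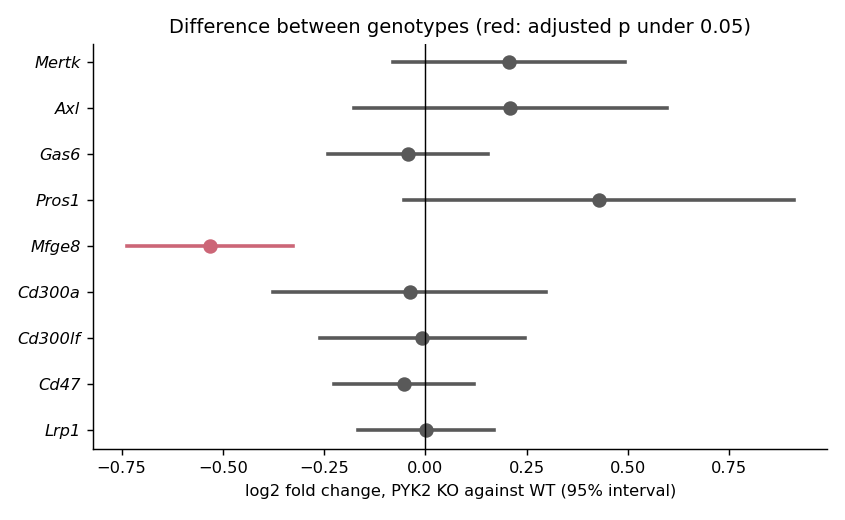
Log2 fold change of PYK2 KO against WT (points) with its 95% interval (lines) for the 9 genes from edgeR's quasi-likelihood fit. The interval of Mfge8 (red) ran from -0.74 to -0.33, and those of the other 8 genes (grey) each held 0.

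Ratios of counts within a library, which do not depend on the scaling, were set out for Mfge8 over each other member. Mfge8 was placed on top because it had passed the test, so these ratios describe the same fall against other references and are given as a description, with no test. The ratio of Mfge8 to Lrp1 counts was 0.320, 0.316 and 0.329 in WT mice and 0.240, 0.199 and 0.226 in PYK2 KO mice, or 0.322 ± 0.0064 against 0.222 ± 0.0205 (SD, n = 3 mice each). Over Gas6, its fellow bridging molecule, the ratio was 0.153, 0.180 and 0.213 in WT and 0.144, 0.117 and 0.120 in PYK2 KO. The genotypes did not overlap in either ratio, nor in 7 of the 8 in all, the exception being that over Pros1. Mean log2 differences of the 8 ratios ran from -0.96, for Pros1, to -0.49, for Cd47.

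Over the 6 libraries, the genes whose log2 levels followed Mfge8 most closely were Erlin1 (Pearson's r = 0.995), Unc45a (r = 0.989) and Iffo1 (r = 0.975), out of 9814 other genes. These are descriptions over 6 points that share their libraries and the difference between genotypes, and 15 genes had an r above 0.95. Erlin1 was at 21.2, 21.6 and 21.0 CPM in WT mice and at 18.0, 13.5 and 14.3 CPM in PYK2 KO mice, and with an adjusted p-value of 0.611 it did not pass edgeR's quasi-likelihood test. Among the members, the correlation with Mfge8 ran from -0.83 for Pros1 to 0.34 for Cd47.

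The wider efferocytosis pathway was covered by 9 lists of 84 further genes, 66 of which were tested. None passed at an adjusted p-value under 0.05 in edgeR's quasi-likelihood test, nor in its likelihood ratio or exact test, in DESeq2 or in limma. Without a filter on low counts 3 passed, Cd300ld, Cd36 and Anxa1. At an unadjusted p-value under 0.05 there were 6, or 9.09% of the 66, beside the 6.03% of all genes. Of the 66 genes 27 had a log2 fold change above 0 and 39 below 0, with a median of -0.05. The genotypes did not overlap in 5 of the 66, or 7.58%, beside the 10.2% of all genes, and these were Stab1, Thbs1, Pilra, P2ry6 and Gpr132. Between the sides of the library split described for Pros1, 12 of the 66 did not overlap, or 18.2%, beside the 14.2% of all genes. Of the 18 list genes named by rule, 12 had a log2 fold change that moved by over 1.5 times when single libraries were dropped, with no sign turned and none past the test. These 12 were Cd36, Anxa1, Sirpa, Elmo1, Dock1, Dnase2a, Nr1h3, Abcg1, Adam17, Adam9, Lrpap1 and Snx17.

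Among other phosphatidylserine receptors and partners, 11 of 16 genes were tested, with a median log2 fold change of -0.01. Timd4 had 1 count in all, Stab2 at most 12 counts and Adgrb1 at most 2 in a library, and Havcr1 had none, so the receptors TIM-4, stabilin-2, BAI1 and TIM-1 were not compared. The integrin chains that receive MFG-E8, Itgav, Itgb3 and Itgb5, had log2 fold changes of 0.01, -0.19 and -0.17, none past the test. Cd300ld, a paralog of Cd300lf, was at 50.6 ± 7.70 CPM in WT mice and 68.1 ± 11.7 CPM in the PYK2 KO group (SD, n = 3 mice each; log2 fold change 0.44, edgeR adjusted p = 0.537). Cd36, a scavenger receptor for oxidized lipids and dying cells, was at 27.1, 15.4 and 10.5 CPM in WT mice and 18.3, 31.5 and 41.1 CPM in PYK2 KO mice, so the groups overlapped (log2 fold change 0.74, edgeR adjusted p = 0.697). The same split that parted Pros1 also parted Cd36, at 27.1 to 41.1 CPM against 10.5 to 18.3 CPM. It parted the summed neutrophil markers too, though not every marker, and their part was not tested. The log2 fold change of Cd36 ran from 0.45 without PYK2 KO library 4 to 1.21 without WT library 1. Stab1, another receptor of phosphatidylserine and one singled out after its values were seen, was at 543 ± 21.0 CPM in the WT group and 472 ± 33.3 CPM in the PYK2 KO group (SD, n = 3 mice each), without overlap but not past the test (log2 fold change -0.20, edgeR adjusted p = 0.727).

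Of the other bridging molecules and opsonins, 8 of 12 genes were tested, with a median log2 fold change of 0.05. Edil3, which encodes the paralog of MFG-E8, had at most 6 counts in a library and was not tested. Anxa1, which encodes annexin A1, had a log2 fold change of 0.81 (edgeR adjusted p = 0.555) that rested on PYK2 KO library 4, at 276 CPM against 86.5 to 119 CPM in the other 5, and it was 0.20 without that library. Anxa1 too was parted by the split, at 110 to 276 CPM against 86.5 to 100.1 CPM. Thbs1, which encodes thrombospondin-1, a ligand of CD47 and CD36, was at 17.6, 14.8 and 15.1 CPM in WT mice and 18.9, 22.5 and 20.6 CPM in PYK2 KO mice. The genotypes of Thbs1 did not overlap, but its log2 fold change of 0.37 did not pass (edgeR adjusted p = 0.783). The chains of C1q, C1qa, C1qb and C1qc, were at 0.17, -0.13 and -0.20 on the log2 scale and did not pass.

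Among inhibitory receptors and phosphatases, 6 of 9 genes were tested, with a median log2 fold change of -0.05. Sirpa, which encodes the receptor of CD47, was at 1488 ± 138 CPM in the WT group and 1381 ± 126 CPM in the PYK2 KO group (SD, n = 3 mice each; log2 fold change -0.11, edgeR adjusted p = 0.935). Pilra, which encodes an inhibitory receptor of myeloid cells, was at 53.8 ± 11.7 CPM in the WT group and 70.7 ± 3.01 CPM in the PYK2 KO group (SD, n = 3 mice each), without overlap but not past the test (log2 fold change 0.41, edgeR adjusted p = 0.539). Of the receptors that sense find-me signals, 4 of 5 were tested. P2ry6, a receptor of UDP, and S1pr1, a receptor of sphingosine-1-phosphate, had log2 fold changes of -0.13, without overlap, and -0.16, and did not pass.

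Past recognition, the engulfment machinery (11 of 12 genes tested, median log2 fold change 0.04), the genes of corpse digestion (11 of 11, median -0.03) and the receptor shedding proteases (3 of 3, median -0.02) had no gene past the test. Dock1 and Elmo1, which together form the exchange factor that activates RAC1, had log2 fold changes of 0.21 and 0.68, the latter on at most 19 counts per library. Without WT library 5 the value of Dock1 was 0.00038, and without WT library 1 it was 0.37, while that of Elmo1 ran from 0.33, when PYK2 KO library 4 was dropped, to 0.95, when WT library 5 was. Rab5a of the early phagosome was at 0.40 and was parted by the split, at 4.34 to 5.54 CPM against 2.80 to 4.17 CPM. The nuclease gene Dnase2a was at -0.15, and Adam17, whose product sheds MERTK, and Adam9 at 0.09 and -0.06. In the list of nuclear receptors and cholesterol efflux, which handles the lipid of ingested cells, 8 of the 9 genes tested were below 0, with the lowest median of the 9 lists, -0.18, though none had an unadjusted p-value under 0.05. Nr1h3, which encodes the sterol receptor LXRα, was at 13.8, 15.1 and 14.4 CPM in WT mice and 15.1, 9.01 and 9.24 CPM in PYK2 KO mice, lower in libraries 3 and 4 and parted by the same split. The cholesterol exporter gene Abcg1 was at 53.4 ± 6.27 and 47.4 ± 7.31 CPM (SD, n = 3 mice each). Lrpap1, which encodes the chaperone of LRP1, and Snx17, which encodes an adaptor that recycles it, had log2 fold changes of -0.19 and -0.06 and did not pass, in a list of 7 with 3 tested and a median of -0.06. Snx17 was parted by the split as well, at 129 to 135 CPM against 136 to 151 CPM.

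**Figure D4:**
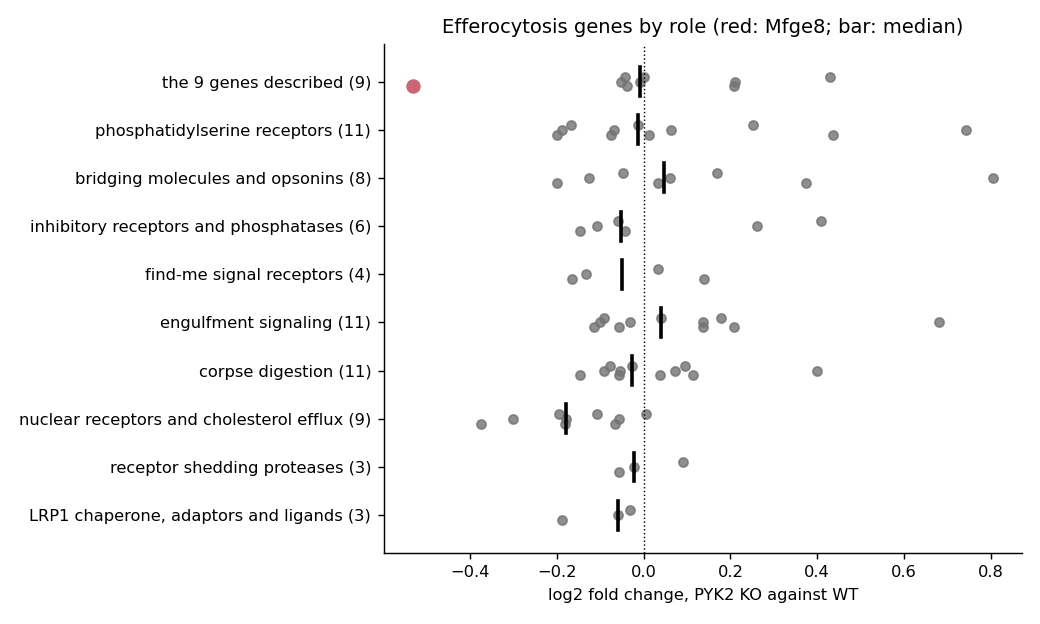
Log2 fold change of PYK2 KO against WT for each tested gene (points) of the 9 genes described and of the 9 further lists, with the number tested in brackets and the median as a bar. Mfge8 (red, -0.53) lies below every grey point, the lowest of which is Nr1h3 at -0.37; the highest is Anxa1 at 0.81.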

How the data were processed

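The data were bulk RNA-seq libraries of BMDMs, each from a single mouse (3 WT, 3 PYK2 KO). The authors prepared them by MARS-seq adapted to bulk RNA, ran UTAP for mapping and counting, and deposited raw counts per gene symbol. The submitters' processing notes name cutadapt, STAR and mm10. The annotation, the use of strand and the collapsing of molecular identifiers are not given in the sources used here, so errors from counts cover counting error only. Columns of other samples numbered 0.

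edgeR 4.0.16 in R 4.3.3 was used for testing (genes kept by filterByExpr, TMM scaling, a quasi-likelihood F test for genotype, Benjamini-Hochberg adjusted p-value under 0.05 over all genes). Standard errors and 95% intervals were derived from each gene's fold change and F value. The fit was also run on simulated counts with known fold changes, and the outcome is not given here. Alternatives used DESeq2 1.42.0, limma 3.58.1 (voom), other normalizations, filters and edgeR tests, each library left out in turn, and a covariate for a split of the libraries. Permutation tests (scipy 1.17.1) used log2(CPM + 0.5) or log2 ratios. Positions are from GENCODE M21 and promoters from RefSeq (GRCm38.p6), with 9 of 9 members matched in each.

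The members, lists and the split were chosen with earlier results of these data known. Named were all members, Ptk2b, the 2 genes of smallest unadjusted p-value per list with any that passed, and the 3 genes most correlated with a member that passed; Stab1, Gpr132, the integrin and C1q chains and the receptors and ligands named as untested were added after their values were seen. Within a genotype no pair of libraries was a duplicate, with a chi-square per degree of freedom from 2.25 to 5.15. Pairs between genotypes were not compared.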

Additional observations from a re-analysis of the deposited data

How the results depend on the processing

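No paired analysis was possible because the genotypes share no library number (1, 5 and 6 in WT, 2, 3 and 4 in PYK2 KO). The number of members that differed was 1 under each of the 10 other settings and 0 to 1 when single libraries were dropped, 0 of them without library 5 or 6 of WT or library 3 or 4 of PYK2 KO. Of 144 values for the log2 fold changes of the members, 130 kept their direction and side of the threshold, 4 of Mfge8 were weaker and 10 were reversed, all of the latter in genes near 0. Reversed were Cd300lf with upper quartile normalization (0.00085), Lrp1 without a filter (-0.0054) and in limma (-0.00094), and, when single libraries were dropped, Gas6 (-0.15 to 0.065), Cd300a (-0.11 to 0.042), Cd300lf (-0.091 to 0.12) and Lrp1 (-0.055 to 0.050). The log2 fold change of Ptk2b stayed between -3.19 and -3.11. The number of all genes that differed was 25, against 159 without a filter, 45 by likelihood ratio and 43 by edgeR's exact test, and 14 to 34 when single libraries were dropped, 14 without library 4 of PYK2 KO and 15 each without library 2 of PYK2 KO or library 5 of WT. Of the further efferocytosis genes 0 differed, against 3 without a filter (Cd300ld, Cd36 and Anxa1). In each case the cause was not tested. Pros1, Axl and Cd300a had the fewest counts, 31 to 84 per library. The spread between mice was also wider than counting error for Axl in WT (coefficient of variation 23.6% against 11.5% to 12.6%) and for Pros1 in PYK2 KO (27.4% against 13.0% to 18.0%). Members with more counts showed this too, among them Gas6 in WT (14.7% against 1.15% to 1.57%) and Mfge8 in PYK2 KO (14.2% against 2.95% to 4.33%). Others were Mertk in PYK2 KO (17.4% against 7.14% to 8.84%) and Cd300lf in both groups (12.9% and 15.6% against 4.70% to 5.98%).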

Other observations

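Of the 3 PYK2 KO libraries, library 2 was nearest to the WT mean for 6 of the 9 members (Mertk, Gas6, Pros1, Mfge8, Cd300a and Cd300lf) and farthest from it for 2 (Cd47 and Lrp1). Library 4 was nearest for Axl and Cd47 and library 3 for Lrp1. The level of library 2 as a share of the WT mean was 80.1% for Mfge8, against 61.5% and 65.6% in libraries 3 and 4, and 93.5% for Pros1, against 163% and 151%. For Lrp1 it was 108% against 99.4% and 93.3%. This was counted after the values were seen and not tested, and no label separates library 2 from the others.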
